A study of Mus musculus with 36 samples.

Results

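The comparison set the pressure-loaded mouse left ventricle at zeitgeber time 23 (ZT23, 23 h on the time-of-day scale of the labels) against the same tissue at ZT19. Its members were the arrays whose titles give TAC surgery at either time, 3 at ZT23 and 3 at ZT19, which made 6 of the 36 arrays of the series. TAC is transverse aortic constriction, an operation that narrows the aortic arch so that the left ventricle ejects against a raised pressure. The series covered TAC and SHAM hearts at 6 times over a day, with 3 mice for each surgery and time, and 1 Affymetrix expression array per mouse. All mice were killed 8 weeks after surgery, and the groups used here were TAC at ZT23, TAC at ZT19, the other 12 TAC arrays (ZT03, ZT07, ZT11 and ZT15, which help to estimate the spread), and SHAM at ZT23 and at ZT19. The strain, the sex, the age and the light schedule of the mice, and the grade of constriction, are not given in the labels used here, and each time was sampled in other animals. Mice at ZT23 and at ZT19 therefore differ in the animal, its constriction and its dissection as well as in the time of day, and these cannot be told apart for a difference of group means.

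A ventricle under pressure load thickens, returns to genes of fetal heart muscle such as the slow beta myosin heavy chain Myh7 and the natriuretic peptide Nppa, and lays down collagen through activated fibroblasts that make periostin (Postn). Atrial muscle is distinguished from adult ventricular muscle by its own myosin light chains, Myl7 and Myl4, and by sarcolipin (Sln), an inhibitor of the calcium pump. The heart also keeps a circadian clock, in which BMAL1 (gene Arntl) and CLOCK drive genes such as Nr1d1, Per2 and Bhlhe40, whose proteins repress the loop in turn.

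Values are on a log scale taken as log2. Each probe set had been centred before deposit on its median over the 18 TAC arrays and, separately, over the 18 SHAM arrays, so that a value states how far an array lies from the TAC (or SHAM) median and says nothing of the absolute level. TAC and SHAM levels could not be compared, and whether a defining marker of a cell type is absent could not be read. A change is the ZT23 mean minus the ZT19 mean, given with its standard error (SE) from a limma fit of the 12393 genes over the 18 TAC arrays, with Benjamini-Hochberg adjusted p-values over all genes and a threshold of 0.05. In whole tissue, fewer cells of a type and less RNA per cell cannot be told apart.

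Some arrays carried genes of other tissues. The mean of 14 airway and lung epithelium markers was 1.501 on TAC ZT23 replicate 1, against -0.05 and -0.02 on the other ZT23 arrays and -0.11 to -0.005 on the ZT19 arrays. The mean of 10 white adipocyte markers was 1.14 on TAC ZT19 replicate 2, against -0.29 and -0.23 on the other ZT19 arrays and -0.54 to 0.29 on the ZT23 arrays. TAC ZT19 replicate 3 had the highest mean of 6 erythroid markers among the 6 arrays, 0.52. The 12 ventricular muscle markers varied little, with list means of -0.02, -0.01 and 0.03 on the ZT23 arrays and 0.002, 0.09 and -0.02 on the ZT19 arrays.

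Between ZT23 and ZT19, 7 genes passed the test in TAC hearts, 0.0565% of those tested. Single-stranded DNA binding protein gene Nabp1, the membrane-anchored metalloproteinase Mmp14 and the clock repressor Bhlhe40 rose at ZT23 (0.0242% of genes). The atrial marker genes Myl7, Stard10, Sln and Myl4 fell at ZT23 (0.0323%). An unadjusted p under 0.05 was reached by 1027 genes (8.29%), of which 492 were higher at ZT23 (3.97%) and 535 lower (4.32%). The ZT23 and ZT19 arrays did not overlap for 696 genes with higher values at ZT23 (5.62%) and for 990 with lower values (7.99%). The median change over all genes was -0.01, and 43.3% of genes had a higher mean at ZT23.

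The count of 7 rested on single arrays. It was 0 without TAC ZT23 replicate 2, 0 without TAC ZT19 replicate 2, 4 without TAC ZT23 replicate 1 and 4 without TAC ZT19 replicate 3. Without the arrays that had a marker list mean above 1, a setting added after the data had been seen, 3 genes passed, and they were Myl7, Sln and Myl4. In the TAC fit the arrays left out were ZT23 replicate 1, ZT19 replicate 2 and replicate 3 at ZT03, ZT11 and ZT15. The replicate 3 arrays had an airway marker mean of 1.11 at ZT03 and white adipocyte marker means of 1.45 at ZT11 and 1.42 at ZT15. Both compared times lost an array, and the spread came from fewer arrays.

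**Figure D1:**
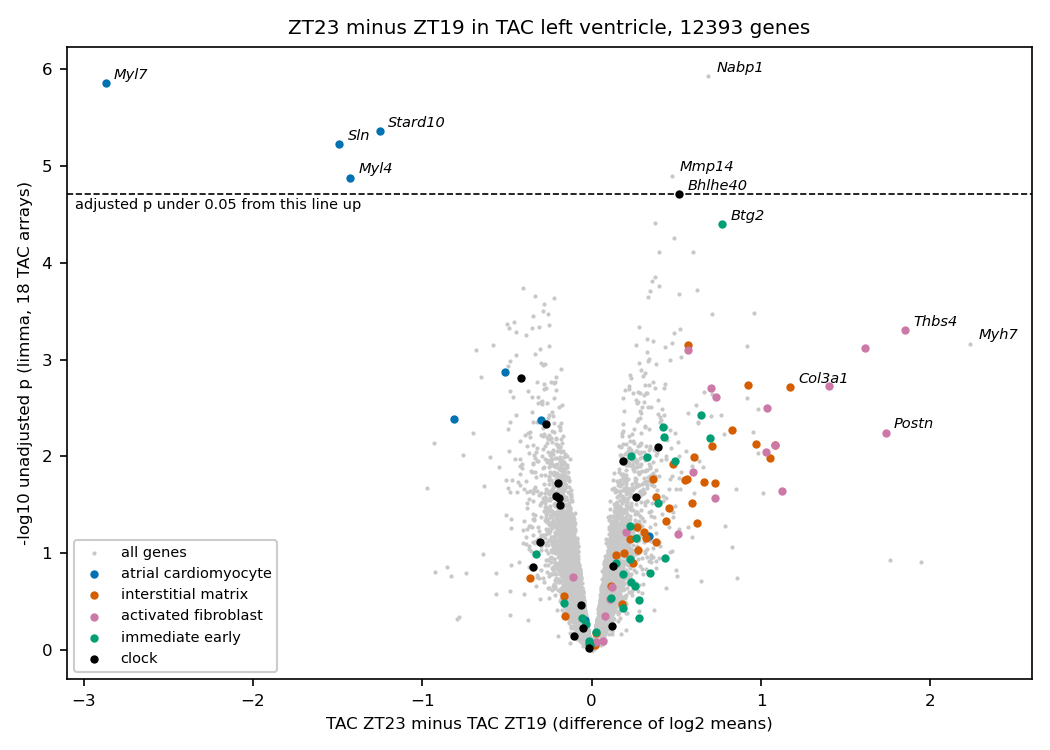
Each point is a gene, with the difference of its TAC ZT23 and TAC ZT19 means (log2) on the x axis and the -log10 unadjusted p of the limma fit on the y axis. The 4 atrial genes stand to the left of all other genes at or above the dashed line, and Myh7 and the fibroblast genes Thbs4 and Postn lie to the right with large differences that did not pass.

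The atrial genes showed the largest falls. Myl7, the regulatory myosin light chain of atrial muscle, had values of -1.30, -2.81 and -2.70 on the ZT23 arrays, against 0.99, 0.75 and 0.04 on the ZT19 arrays. All 3 ZT23 arrays lay below all 15 other TAC arrays, as in 0.718% of genes; the lowest of these was -0.78, and ZT23 replicate 1 was the least low. The change was -2.87 ± 0.39 (SE, n = 3 per time; limma adjusted p = 0.00878), a level 7.31-fold lower at ZT23 on a linear scale. The Myl7 promoter window of RefSeq (GRCm38.p6, chr11:5898733-5899032, minus strand, 250 bases before to 50 after the start of the gene) is printed because this gene had the largest fall. Its capitals mark a CArG box, the element bound by serum response factor in muscle genes, 61 bases before the start.
Myl7: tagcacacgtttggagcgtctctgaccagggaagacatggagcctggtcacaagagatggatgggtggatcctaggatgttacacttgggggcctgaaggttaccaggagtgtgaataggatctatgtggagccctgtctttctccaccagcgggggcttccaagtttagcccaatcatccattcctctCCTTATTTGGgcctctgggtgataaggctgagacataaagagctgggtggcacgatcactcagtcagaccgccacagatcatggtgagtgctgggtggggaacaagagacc
A CArG box was found in 1.63% of all promoter windows and in 1 of the 7 atrial marker genes that had a window. The share is counted per window and the genes by a match in any of their windows, so the measures are unlike. Sln, which is shown by values only, had -0.52, -1.64 and -1.55 at ZT23 and 0.51, 0.23 and 0.01 at ZT19. Its change was -1.49 ± 0.23 (SE; limma adjusted p = 0.0186). The essential atrial light chain Myl4 had -0.42, -1.52 and -1.41 at ZT23 and 0.51, 0.33 and 0.08 at ZT19. It changed by -1.42 ± 0.23 (SE; limma adjusted p = 0.0274). For both genes the ZT23 arrays lay below all 15 other TAC arrays, and replicate 1 was again the highest of the ZT23 arrays.

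Sln and Myl4 were each read by a pair of probe sets that disagreed. One Sln probe set changed by -2.84 ± 0.43 (SE; limma adjusted p over probe sets = 0.0284) and the other by -0.14. One Myl4 probe set changed by -2.75 ± 0.47 (SE; limma adjusted p over probe sets = 0.0335) and the other by -0.10. The gene values above average a probe set with a change close to that of Myl7 and one with a change near 0, so the size of the fall in these genes depends on the probe set.

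Stard10, which codes for a lipid transfer protein, had -0.87, -1.0005 and -0.72 at ZT23, against 0.55, 0.53 and 0.07 at ZT19. Its change of -1.25 ± 0.19 (SE; limma adjusted p = 0.0183) was a level 2.38-fold lower, and the ZT23 arrays did not reach the values of any other TAC array. Bmp10, a growth factor of atrial muscle, changed by -0.51, and the atrial potassium channel gene Kcnj3 by -0.30. Neither passed (limma adjusted p = 0.234 and 0.335). In both the ZT23 arrays lay below the ZT19 arrays without overlap, as in 7.99% of all genes. The secreted protein gene Dkk3 differed by -0.82 with overlapping arrays (limma adjusted p = 0.329), and Nr2f2, a transcription factor of atrial identity, by -0.04.

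Nppa, the atrial natriuretic peptide, had a higher mean at ZT23. Its values were 0.37, 0.42 and 0.21 at ZT23, against 0.47, -0.24 and -0.25 at ZT19, and ZT19 replicate 1 exceeded every ZT23 array. The change was 0.34 ± 0.17 (SE; limma adjusted p = 0.633). Of the 9 measured atrial markers, 8 had a lower mean at ZT23, 7 were lower at an unadjusted p under 0.05 (4.32% of all genes) and 4 passed over all genes. Their median change was -0.82, against -0.01 over all genes. The list mean was -0.68 ± 0.27 at ZT23 and 0.25 ± 0.27 at ZT19 (SD, n = 3). Which part of the heart was cut, the amount of atrial muscle in each piece of tissue and the time of day could not be told apart for these genes, and their part in the result was not tested. With the mean of the atrial markers as a covariate, which holds these genes themselves, only Nabp1 of the 7 passed, with a change of 1.03 (limma adjusted p = 0.0408).

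**Figure D2:**
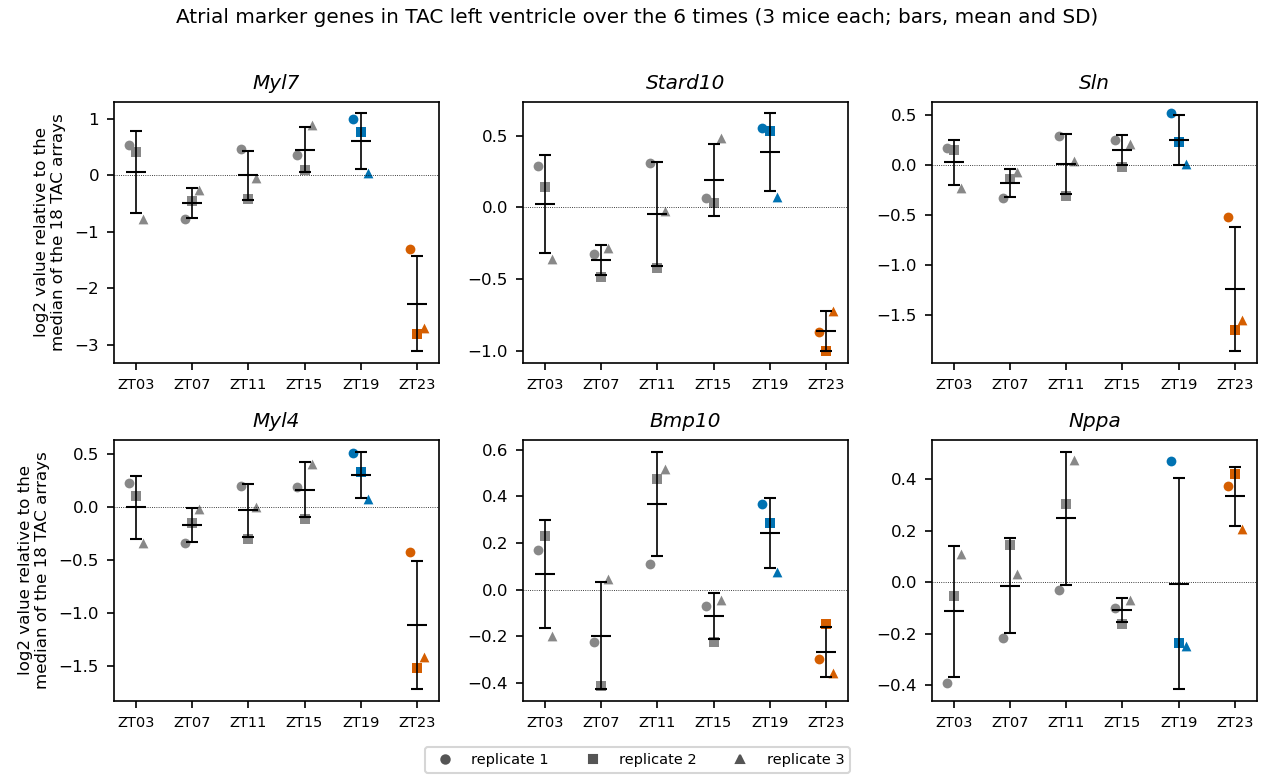
The 6 plots show atrial marker genes on the 18 TAC arrays, with the time of day on the x axis and the log2 value relative to the TAC median on the y axis. Points are mice, with replicates 1, 2 and 3 as circles, squares and triangles, and bars give the mean and SD; Myl7, Stard10, Sln and Myl4 are lowest at ZT23 on all 3 arrays, whereas Nppa is not.

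Genes of the fetal and load programme moved in both directions. Myh7 had 1.54, 1.62 and 0.96 on the ZT23 arrays, against 0.17, -1.44 and -1.31 on the ZT19 arrays. The groups did not overlap, and ZT19 replicate 1 lay between the ZT23 arrays and the other ZT19 arrays. The change was 2.23 ± 0.54 (SE; limma adjusted p = 0.183), which is 4.71-fold in the means and did not pass. Myh7 was also spread widely at other times, with -1.95 to 1.17 on the other 12 TAC arrays. It reached a limma adjusted p of 0.00638 with the spread of all 36 arrays. That spread takes in the SHAM arrays, where Myh7 ranged less at these times (below), and the SE was 0.41 against 0.54. The change was 1.43 with the atrial marker mean as a covariate and 1.02 with the matrix list mean as a covariate (limma adjusted p = 0.765 and 0.9999). Without the arrays that had a marker list mean above 1 it was 1.86.

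Alpha myosin Myh6, the main adult isoform in mouse ventricle, had -0.004, -0.08 and 0.01 at ZT23 and 0.07, 0.30 and 0.11 at ZT19, a change of -0.19 (limma adjusted p = 0.781). The natriuretic peptide Nppb had 0.71, 0.50 and 0.62 at ZT23 and 0.46, -0.10 and -0.08 at ZT19, a change of 0.52 (limma adjusted p = 0.615). Its ZT23 arrays were higher than its ZT19 arrays without overlap. The connective tissue growth factor Ccn2 changed by 1.01, the stretch-sensing LIM protein Fhl1 by 0.78 and the ubiquitin hydrolase Uchl1 by 0.53. The ankyrin repeat protein Ankrd1 changed by 0.53, the actin regulator Enah by 0.52 and the muscle LIM protein Csrp3 by 0.17. None of these passed over all genes (limma adjusted p from 0.200 to 0.477). In each the ZT23 arrays lay above the ZT19 arrays without overlap. In this way 8 of the 27 measured genes of this programme lay higher and 5 lower, against 5.62% and 7.99% of all genes. The slow troponin gene Tnnt1 changed by -0.27 and beta tropomyosin Tpm2 by -0.26 (limma adjusted p = 0.473 and 0.329).

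Of the 27 measured genes of this programme, 7 were higher and 4 lower at an unadjusted p under 0.05, against 3.97% and 4.32% of all genes. The only 2 that passed were Myl7 and Myl4, which are also atrial markers. Skeletal actin Acta1, an early marker of hypertrophy, changed by 0.08 and the calcium pump Atp2a2 by -0.10. The median change of the list was 0.09, and 17 members had a higher and 10 a lower mean at ZT23. Its members that are not named here did not reach an unadjusted p under 0.05.

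Collagen and other matrix genes had higher means at ZT23. Postn, which codes for periostin, had 1.44, 1.25 and 1.18 at ZT23, against 0.45, -0.80 and -0.99 at ZT19. The ZT23 arrays lay close together and did not overlap with the ZT19 arrays, of which replicate 1 was the highest. The change was 1.74 ± 0.55 (SE; limma adjusted p = 0.367). Thbs4, a thrombospondin of stressed muscle and tendon, had 1.16, 0.99 and 1.502 at ZT23 and 0.29, -1.04 and -1.14 at ZT19. It changed by 1.85 ± 0.43 (SE; limma adjusted p = 0.165). Ltbp2, which binds elastic microfibrils, had 1.53, 1.09 and 0.99 at ZT23 and 0.30, -0.84 and -0.69 at ZT19, a change of 1.61 (limma adjusted p = 0.183). In these genes too ZT19 replicate 1 was the highest of its group.

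The fibrillar collagen Col1a1 had 0.82, 0.31 and 0.60 at ZT23 and -0.26, -0.27 and -0.50 at ZT19. Its change was 0.92 ± 0.25 (SE; limma adjusted p = 0.256), and here the ZT19 arrays lay together. Col3a1, chosen after its values were seen, changed by 1.17 and the proteoglycan Vcan by 0.57 (limma adjusted p = 0.256 and 0.183). Comp, a cartilage and tendon matrix protein, changed by 1.40 (limma adjusted p = 0.256).

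Of 36 interstitial matrix genes, 20 were higher and 0 lower at an unadjusted p under 0.05, against 3.97% and 4.32% of all genes. In 21 of them the ZT23 arrays lay above the ZT19 arrays without overlap, and 33 had the higher mean at ZT23. Over all genes these shares were 5.62% and 43.3%. None passed over all genes. The median change of the list was 0.41, and its mean was 0.45, 0.19 and 0.27 on the ZT23 arrays and 0.06, -0.15 and -0.31 on the ZT19 arrays. Of 21 activated fibroblast genes, 13 were higher and 0 lower at that threshold (3.97% and 4.32% of all genes), with a median change of 0.71, and again none passed. The 12 cardiac fibroblast markers, which share members with the matrix and the activated fibroblast lists, had a median change of 0.17. Both lists also ranged widely on the other 12 TAC arrays, the matrix mean from -0.39 to 0.49 and the activated fibroblast mean from -0.46 to 0.66, so that the highest of these hearts lay within the range of the ZT23 hearts or above it. How heavily each heart was loaded was not measured in these files and its part in the result was not tested.

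Mmp14 was the matrix gene that passed. It had 0.52, 0.37 and 0.35 at ZT23, against -0.09, 0.02 and -0.11 at ZT19, and the ZT23 arrays exceeded all 15 other TAC arrays, as in 0.912% of genes. The change was 0.47 ± 0.08 (SE; limma adjusted p = 0.0274), and its probe sets changed by 0.37 and 0.58. The probe set with 0.37 did not pass by itself (limma adjusted p over probe sets = 0.303), and the probe set with 0.58 did (0.0284). Mmp14 did not pass when any single TAC array at ZT23 or ZT19 was left out (limma adjusted p from 0.0505 to 0.168). Nor did it pass with quantile normalization (0.38, limma adjusted p = 0.201) or with the matrix list mean as a covariate (0.32, limma adjusted p = 0.440). Of 23 alternative settings it passed in 7, and its change stayed between 0.32 and 0.58. Of the 18 matrix proteases and inhibitors, 5 were higher and 0 lower at an unadjusted p under 0.05 (3.97% and 4.32% of all genes). Of the 18 basement membrane genes 4 were higher and 0 lower, led by the collagen Col4a3 with a change of 0.26. Of 33 genes of the TGF-beta and BMP pathway, 5 were higher and 1 lower. They included Ltbp2 and Skil, a repressor of SMAD signalling, which changed by 0.22 (limma adjusted p = 0.373).

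**Figure D3:**
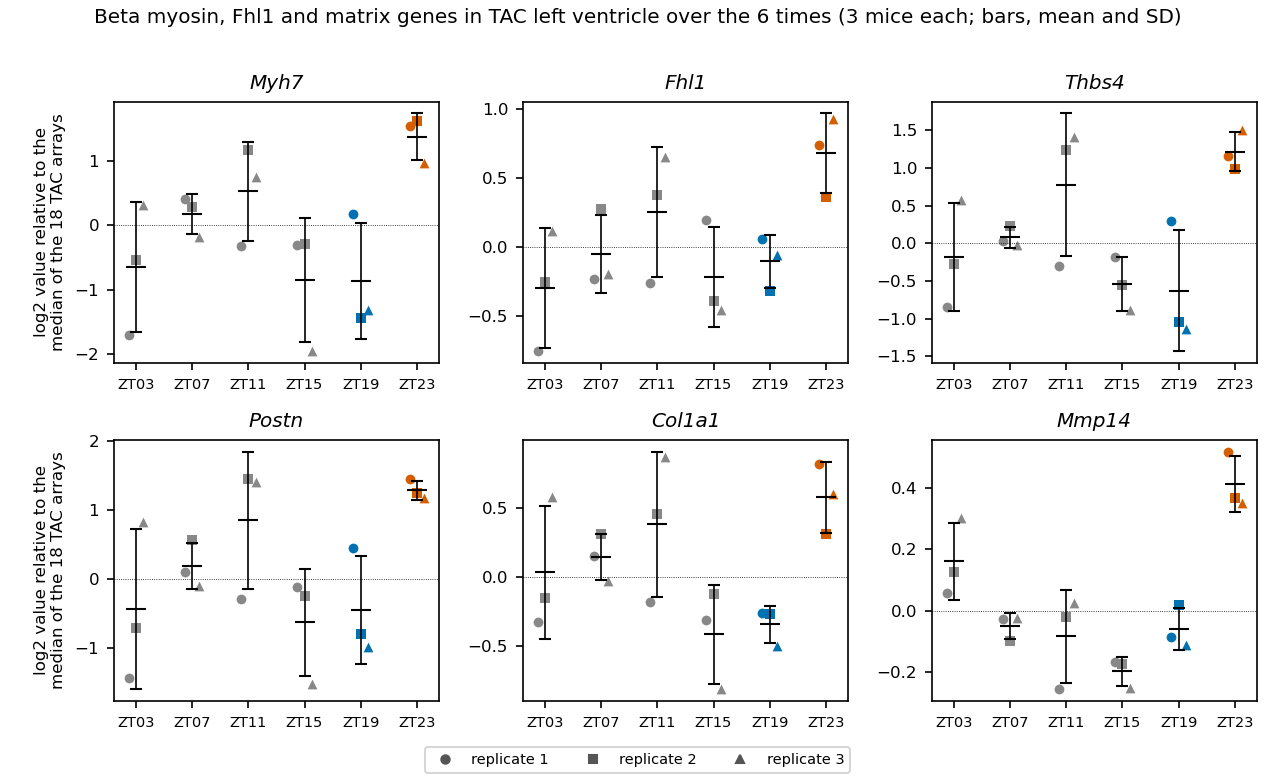
Beta myosin, Fhl1 and 4 matrix genes on the 18 TAC arrays, by time of day (x axis) and log2 value relative to the TAC median (y axis), with a point per mouse and bars for the mean and SD. The ZT23 arrays are high in all 6 genes, some ZT11 arrays are as high in Postn, Thbs4 and Col1a1, and ZT19 replicate 1 (circle) lies above the other ZT19 arrays for Myh7, Thbs4 and Postn.

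Immediate early genes, which are induced within minutes by stretch, hormones or stress, had higher means at ZT23. The antiproliferative gene Btg2 had 0.44, 0.41 and 0.94 at ZT23, against -0.13, -0.27 and -0.12 at ZT19. The groups were well apart, and the change of 0.77 ± 0.14 (SE; limma adjusted p = 0.0549) lay just outside the threshold. Klf4, a zinc finger factor, had 0.94, 0.58 and 0.51 at ZT23 and 0.07, 0.38 and -0.36 at ZT19, a change of 0.65 (limma adjusted p = 0.316). The AP-1 subunit Junb changed by 0.42 and the nuclear receptor Nr4a1 by 0.43, both chosen after their values were seen (limma adjusted p = 0.350 and 0.373). Of the 30 measured members, 9 were higher and 0 lower at an unadjusted p under 0.05, and 23 had the higher mean at ZT23. Over all genes the shares were 3.97%, 4.32% and 43.3%. The median change was 0.23. None passed over all genes, and Fos and Egr1, classical members of the class, changed by 0.43 and 0.28 with overlapping arrays.

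The promoter windows of Btg2, Nr4a1 and Junb (RefSeq, GRCm38.p6) are printed for their matches to the short core of the cAMP response element, an element known for this class. Capitals mark that core, the letters TGACG or, on the other strand, CGTCA. The windows lie at chr1:134079106-134079405 (minus strand), chr15:101266596-101266895 (plus strand) and chr8:84978699-84978998 (minus strand).
Btg2: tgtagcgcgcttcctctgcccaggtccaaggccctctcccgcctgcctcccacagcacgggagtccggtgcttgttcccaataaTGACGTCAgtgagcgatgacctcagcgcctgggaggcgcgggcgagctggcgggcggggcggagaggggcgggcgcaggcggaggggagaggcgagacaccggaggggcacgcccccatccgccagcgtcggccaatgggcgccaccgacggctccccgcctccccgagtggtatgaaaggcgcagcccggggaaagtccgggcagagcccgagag
Nr4a1: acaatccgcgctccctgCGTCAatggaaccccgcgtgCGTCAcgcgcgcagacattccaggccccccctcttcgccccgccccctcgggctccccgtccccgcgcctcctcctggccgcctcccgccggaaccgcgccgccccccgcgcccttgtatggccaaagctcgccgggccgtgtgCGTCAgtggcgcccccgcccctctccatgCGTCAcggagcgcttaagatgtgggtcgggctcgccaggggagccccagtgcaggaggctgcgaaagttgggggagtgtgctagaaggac
Junb: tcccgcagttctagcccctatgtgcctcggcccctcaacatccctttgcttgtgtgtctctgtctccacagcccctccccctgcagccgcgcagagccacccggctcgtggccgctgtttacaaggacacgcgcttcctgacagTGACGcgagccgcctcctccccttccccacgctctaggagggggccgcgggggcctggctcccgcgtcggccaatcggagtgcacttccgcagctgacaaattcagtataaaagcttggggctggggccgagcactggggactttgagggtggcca
In Btg2 the matches on both strands overlap and make up the full element TGACGTCA, whereas Nr4a1 holds 4 matches to the core and Junb 1, with no full element in either. The letters TGACG were found on either strand in 14 of the 25 immediate early genes with a window and in 20.8% of all windows. The full element was found in 2 of the 25 and in 1.79% of all windows. Here too genes were counted by a match in any of their windows and the shares per window, which are unlike measures. A match describes the letters of the window and does not show that a factor binds there.

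Clock genes had changes of both signs. Bhlhe40, also called DEC1, had 0.21, -0.01 and 0.26 at ZT23, against -0.26, -0.36 and -0.47 at ZT19. The groups did not overlap, and the change was 0.52 ± 0.09 (SE; limma adjusted p = 0.0345). Of 21 alternative settings Bhlhe40 passed in 7, and its change stayed between 0.41 and 0.74. With a single TAC array at ZT23 or ZT19 left out, it passed only without ZT19 replicate 1 (limma adjusted p = 0.0494). It did not pass with quantile normalization (limma adjusted p = 0.142) or without the arrays that had a marker list mean above 1 (0.245). Nr1d1, which codes for the repressor REV-ERB alpha, had -0.10, -0.28 and -0.29 at ZT23 and -0.50, -0.77 and -0.58 at ZT19. Its change of 0.39 did not pass in TAC hearts (limma adjusted p = 0.403). Arntl had 0.23, 0.50 and 0.77 at ZT23 and 0.32, 0.22 and 0.19 at ZT19. The lowest ZT23 array fell within the ZT19 range, and the change was 0.26 ± 0.11 (SE; limma adjusted p = 0.503). Its partner Npas2 changed by 0.18.

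The window of Arntl (RefSeq, GRCm38.p6, chr7:113207261-113207560, plus strand) is printed because this gene is the known target of REV-ERB alpha and of the ROR activators. Capitals mark a ROR element, 27 bases into the transcript.
Arntl: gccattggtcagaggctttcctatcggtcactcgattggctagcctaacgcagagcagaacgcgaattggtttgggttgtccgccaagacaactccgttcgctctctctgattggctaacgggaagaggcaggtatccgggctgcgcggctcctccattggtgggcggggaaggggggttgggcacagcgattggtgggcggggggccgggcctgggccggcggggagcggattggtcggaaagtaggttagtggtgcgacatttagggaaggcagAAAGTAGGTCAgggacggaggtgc
This element was found in 0.368% of all windows, counted per window, and in any window of 1 of the 16 clock genes that had one.

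The output factor Hlf had -0.58, -0.38 and -0.40 at ZT23, against -0.08, -0.07 and 0.05 at ZT19, a change of -0.42 (limma adjusted p = 0.246). The related factor Tef changed by -0.21. The repressors Cry2, Per3, Cry1 and Per2 changed by -0.27, -0.20, -0.19 and -0.19, and in each the ZT23 arrays lay below the ZT19 arrays (limma adjusted p from 0.341 to 0.543). Without overlap, 7 of the 18 measured clock genes lay lower and 2 higher, against 7.99% and 5.62% of all genes. Nr1d2, a paralog of Nr1d1, changed by -0.31 and the ubiquitin protease Usp2 by -0.35. Clock, Rora, Nfil3, Bhlhe41, Dbp and Per1 had changes between -0.10 and 0.13 and unadjusted p-values of 0.13 or more. Of the 18 measured clock genes, 4 were higher and 6 lower at an unadjusted p under 0.05, against 3.97% and 4.32% of all genes. The only one that passed over all genes was Bhlhe40.

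**Figure D4:**
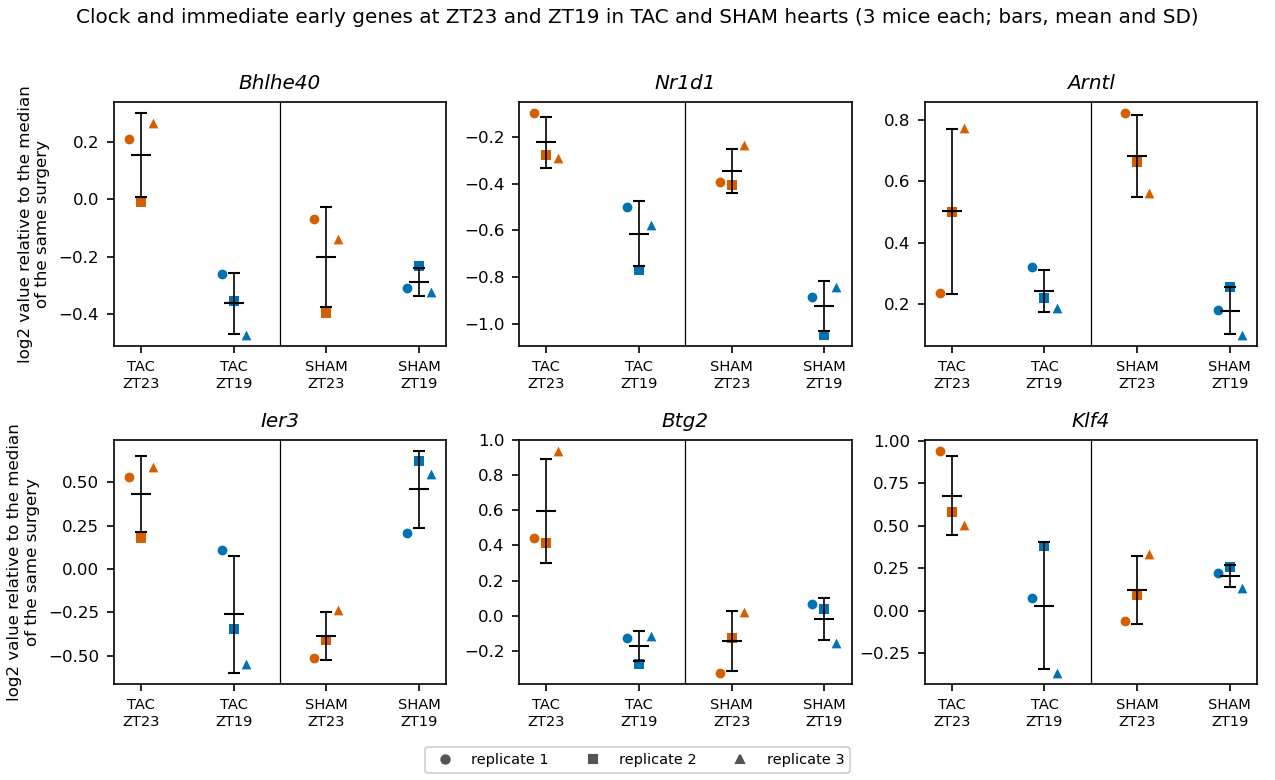
Clock genes (Bhlhe40, Nr1d1, Arntl) and immediate early genes (Ier3, Btg2, Klf4) at ZT23 (orange) and ZT19 (blue) in TAC (left of the line) and SHAM hearts, as log2 values relative to the median of the same surgery, so that levels may be compared only within a surgery. Points are mice and bars the mean and SD; Ier3 is higher at ZT23 in TAC hearts and lower at ZT23 in SHAM hearts.

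Metabolic genes had small changes. The glucose transporter Slc2a1 had 0.52, 0.24 and 0.40 at ZT23, against 0.11, -0.02 and 0.03 at ZT19, a change of 0.35 (limma adjusted p = 0.131). Lactate dehydrogenase A (Ldha) changed by 0.29 (limma adjusted p = 0.258). Of 21 genes of glycolysis and glucose uptake, 4 were higher and 2 lower at an unadjusted p under 0.05 (3.97% and 4.32% of all genes). Acot1, an acyl-CoA thioesterase induced by fasting, had -0.09, -0.20 and -0.04 at ZT23 and 0.05, 0.53 and 0.44 at ZT19. It changed by -0.45 (limma adjusted p = 0.197), and the carnitine palmitoyltransferase Cpt2 by -0.37 (limma adjusted p = 0.258). Of 32 genes of the fasting and PPAR-alpha response, 0 were higher and 6 lower at that threshold, with a median change of -0.14. This list holds adipocyte genes, and ZT19 replicate 2, with its adipocyte markers, had the highest list mean of the 6 arrays, 0.21, against 0.02 and 0.01 on the other ZT19 arrays.

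Oxidative phosphorylation genes, which code for the respiratory chain, had a median change of -0.08, and 7 of 68 had a higher mean at ZT23, against 43.3% of all genes. In 23 of them the ZT23 arrays lay below the ZT19 arrays without overlap, against 7.99% of all genes. An unadjusted p under 0.05 was reached by 4 in that direction and 0 in the other, against 4.32% and 3.97% of all genes. The complex II subunit Sdha changed by -0.26 and the complex III core protein Uqcrc1 by -0.20 (limma adjusted p = 0.506 and 0.473). The list means were -0.05, -0.02 and 0.01 on the ZT23 arrays and 0.05, 0.08 and 0.05 on the ZT19 arrays.

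Heat shock chaperones were uneven among the ZT23 hearts. Hsph1, a large chaperone that assists HSP70, had -0.92, -0.71 and 0.42 at ZT23, against 0.29, 0.12 and 0.29 at ZT19. ZT23 replicate 3 stood above all ZT19 arrays and the other ZT23 arrays stood below them, so the change of -0.64 (limma adjusted p = 0.464) averages mice that lay on both sides of ZT19. The list mean of 22 chaperones split in the same way, with -0.15, -0.04 and 0.33 at ZT23 and 0.20, 0.10 and 0.15 at ZT19. Chordc1, an HSP90 co-chaperone, changed by -0.40. In the unfolded protein response, 0 of 27 genes were higher and 3 lower at an unadjusted p under 0.05 (3.97% and 4.32% of all genes). Herpud1, a gene of degradation at the endoplasmic reticulum, had -0.21, -0.41 and -0.56 at ZT23 and 0.35, 0.34 and 0.18 at ZT19. The change was -0.68 ± 0.17 (SE; limma adjusted p = 0.183). Hsp90b1, a chaperone of the same compartment, changed by -0.35 (limma adjusted p = 0.572).

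The remaining lists held few changes. Of 26 glucocorticoid-induced genes, 1 was higher and 0 lower at an unadjusted p under 0.05 (3.97% and 4.32% of all genes). The 2 with the smallest p, Cebpd and Errfi1, changed by 0.35 and 0.34. The Cebpd probe sets changed by 0.65 and 0.04, and those of Errfi1 by 0.54 and 0.15. Of 28 angiogenesis and hypoxia genes 1 was higher and 1 lower. Of 32 genes of calcium handling and excitation 2 were higher and 4 lower, and the one that passed was Sln. None of 43 cytosolic ribosomal protein genes reached that threshold, and their median change was 0.03. Of 15 genes of amino acid transport, 2 were higher: the creatine transporter Slc6a8 with 0.28 and the transporter heavy chain Slc3a2 with 0.22 (limma adjusted p = 0.444 and 0.416).

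**Figure D5:**
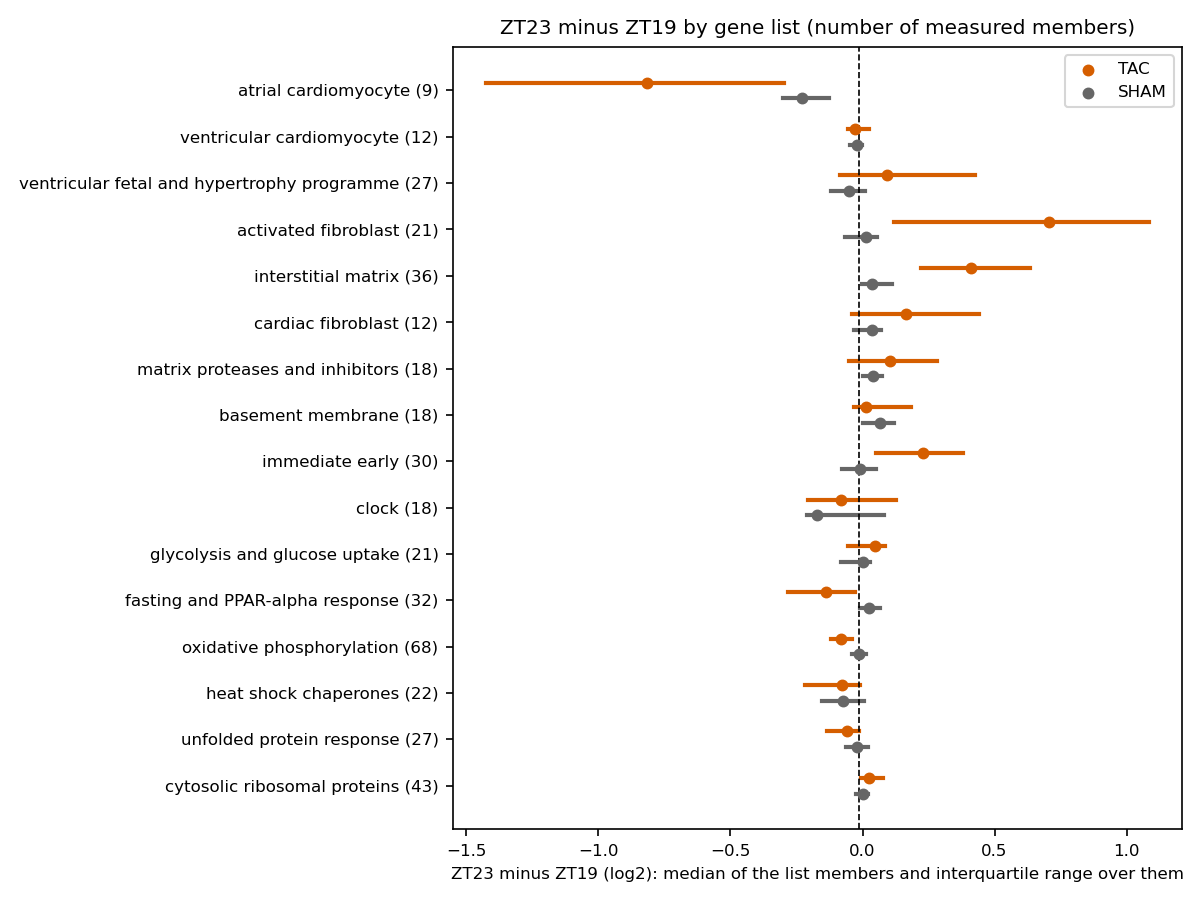
Median (dot) and interquartile range over the members (bar) of the ZT23 minus ZT19 change in 16 gene lists, with TAC above SHAM in each row and the number of measured members in brackets. Atrial markers lie lowest and activated fibroblast and interstitial matrix genes highest in TAC hearts. The SHAM medians have the same sign in all 3 lists and lie nearer to 0. The dashed line is the median of all genes in TAC hearts.

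Nabp1, which codes for a DNA repair protein that binds single strands, had the smallest p of all genes. It had 0.59, 0.35 and 0.17 at ZT23, against -0.20, -0.32 and -0.43 at ZT19. The change was 0.69 ± 0.09 (SE; limma adjusted p = 0.00878), and its 3 probe sets changed by 0.60, 0.73 and 0.74. The groups were separate, but some of the other 12 TAC arrays, which ranged from -0.43 to 0.30, lay as low as those at ZT19. Of 24 alternative settings Nabp1 passed in 16, and its change stayed between 0.58 and 1.03. It did not pass without ZT23 replicate 2 or without ZT19 replicate 2 (limma adjusted p = 0.0522 and 0.0906). Nor did it pass with quantile normalization, with the matrix covariate or without the arrays that had a marker list mean above 1 (limma adjusted p = 0.190, 0.266 and 0.203).

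The genes next in rank did not pass, with limma adjusted p from 0.0549 to 0.157. With higher values at ZT23 they were the tight junction and Hippo pathway gene Amot (0.37), Btg2 (above), the RhoA inhibitor Ripor2 (0.48) and the endocytosis gene Ehd4 (0.60). Next came the cytokine signalling inhibitor Socs3 (0.40), the lysine methyltransferase Smyd2 (0.37) and Popdc2 (0.36), a cAMP-binding membrane protein of heart muscle. With lower values they were the ADP receptor P2ry1 (-0.41), the Rac inhibitor Arhgap24 (-0.34), the helicase gene Dhx57 (-0.22), the metalloproteinase Adamts7 (-0.28), the metallothionein Mt3 (-0.29) and LTO1 (-0.26). In all 13 of these the ZT23 and ZT19 arrays did not overlap, against 5.62% (higher) and 7.99% (lower) of all genes. Their choice by smallest p on the same arrays favours this. The Amot probe sets changed by 0.07, 0.13 and 0.91, and the Socs3 probe sets by 0.28, 0.19 and 0.72. In each gene only the probe set with the largest change passed by itself (limma adjusted p over probe sets = 0.0376 and 0.0335).

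For markers of other cells, the median change was -0.45 for 10 white adipocyte markers, of which 8 had a lower mean at ZT23, and 0.27 for 14 airway and lung epithelium markers, of which 10 had a higher mean. It was -0.20 for 8 B cell and -0.19 for 6 erythroid markers, all of which had a lower mean at ZT23, against -0.01 over all genes. The B cell list mean was 0.52 on TAC ZT19 replicate 2, the array that also carried the adipocyte markers, and between -0.13 and 0.14 on the other 5 arrays. The median changes were -0.02 for smooth muscle and pericyte, -0.05 for T cell, 0.05 for neutrophil, -0.03 for skeletal muscle, -0.03 for endothelial, 0.05 for brown adipocyte, -0.05 for mesothelial, 0.04 for valve and -0.05 for nerve markers. Among endothelial markers the junction gene Cldn5 changed by 0.30 and Eng, a TGF-beta co-receptor, by -0.21. The scavenger receptor Cd163 of resident macrophages had -0.02, -0.48 and -0.49 at ZT23 and 0.37, 0.18 and 0.20 at ZT19, a change of -0.58 (limma adjusted p = 0.183), while the median of 14 macrophage markers was 0.01. The B cell gene Ms4a1 changed by -0.22. Dio2, the thyroid hormone deiodinase, changed by 0.71. Thrsp, a lipogenic adipocyte gene, had -0.29, -0.51 and -0.49 at ZT23 and 0.01, 1.22 and 0.28 at ZT19, highest on the array with the adipocyte markers. Krt18, an epithelial keratin, changed by 0.40. Prg4, a lubricin of joints and valves, had 1.87, 0.60 and 0.26 at ZT23 and 0.07, 0.01 and -0.22 at ZT19, highest on the array with the airway markers. None of these passed over all genes, and the part of other tissues in these values was not tested.

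The same contrast in SHAM hearts, over 18 SHAM arrays, gave 9 genes (0.0726%), 4 higher (0.0323%) and 5 lower (0.0403%) at ZT23, and 0 were among the 7 of the TAC hearts. SHAM ZT23 replicate 3 had an airway marker mean of 0.87 and SHAM ZT23 replicate 2 a white adipocyte marker mean of 0.96. An unadjusted p under 0.05 was reached by 428 genes in SHAM hearts (3.45%), 238 higher (1.92%) and 190 lower (1.53%). In SHAM hearts 0 of 9 atrial markers had a higher mean at ZT23, with a median change of -0.23, and 0 reached that threshold. Of 36 interstitial matrix genes, 27 had a higher mean, and 7 were higher and 0 lower at that threshold. Of 21 activated fibroblast genes, 12 had a higher mean, and 1 was higher and 0 lower. Over all 12393 genes, 6397 had a higher mean at ZT23 in SHAM hearts. Arntl changed by 0.26 in TAC and 0.50 in SHAM hearts (limma adjusted p = 0.503 and 0.00352). Nr1d1 changed by 0.39 in TAC and 0.58 in SHAM hearts (limma adjusted p = 0.403 and 0.00364). Herpud1 changed by -0.68 in TAC and -0.59 in SHAM hearts (limma adjusted p = 0.183 and 0.00153). None of these differences between TAC and SHAM passed (limma adjusted p = 0.964, 0.999 and 0.999).

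The difference of the changes, TAC minus SHAM, was tested over all 36 arrays and passed for 1 gene (0.00807%), with an unadjusted p under 0.05 for 642 (5.18%). That gene was Ier3, an immediate early gene of stress and survival signalling. In TAC hearts it had 0.53, 0.18 and 0.59 at ZT23 and 0.11, -0.35 and -0.55 at ZT19. In SHAM hearts it had -0.51, -0.41 and -0.24 at ZT23 and 0.21, 0.63 and 0.55 at ZT19. The change was 0.70 in TAC hearts (limma adjusted p = 0.377) and -0.84 in SHAM hearts (limma adjusted p = 5.96e-04), a difference of 1.54 ± 0.26 (SE; limma adjusted p = 0.0206). With 1 array left out at a time, the difference for Ier3 stayed between 1.40 and 1.73 but no longer passed in 7 of 12 cases (limma adjusted p from 0.0572 to 0.168). These were the omissions of TAC ZT23 replicate 3, TAC ZT19 replicate 2 or 3, SHAM ZT23 replicate 1 or 2, and SHAM ZT19 replicate 2 or 3. The number of genes was 0 without TAC ZT19 replicate 2 or 3, without SHAM ZT23 replicate 1 or 2, and without SHAM ZT19 replicate 2. It was 4 without TAC ZT23 replicate 1, 2 without TAC ZT19 replicate 1 and 4 without the arrays that had a marker list mean above 1. In this test those arrays also included SHAM ZT11 replicate 3 and SHAM ZT15 replicate 3.

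For the atrial and load genes the difference from SHAM did not pass. Myl7 changed by -2.87 in TAC and -0.37 in SHAM hearts, a difference of -2.50 ± 0.53 (SE; limma adjusted p = 0.196). That difference was -2.98 without TAC ZT23 replicate 1, the array with the airway markers, and it then passed (limma adjusted p = 0.0101). Sln changed by -1.49 in TAC and -0.19 in SHAM hearts (difference -1.30, limma adjusted p = 0.319). Myh7 changed by 2.23 in TAC and 0.03 in SHAM hearts, and the SHAM arrays at these times ranged from -0.37 to 0.04. The difference was 2.20 ± 0.58 (SE; limma adjusted p = 0.400). Bhlhe40 changed by 0.52 and 0.09, Nabp1 by 0.69 and 0.29 and Mmp14 by 0.47 and 0.15 in TAC and SHAM hearts (limma adjusted p of the difference from 0.548 to 0.847). The other genes with the smallest p for the difference were Amot, Arhgap24, Perp, Slc2a1, Dhx57, Clip1 and LTO1 (limma adjusted p from 0.196 to 0.357). Perp, a desmosome gene, changed by 0.49 in TAC and -0.14 in SHAM hearts, and Clip1, which links vesicles to microtubules, by 0.33 and -0.06.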

How the data were processed

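The authors deposited log-scale values for 22690 probe sets on 36 arrays, taken here as log2; the sources used here name neither the log base nor how probes were summarised and normalized. Per the labels' protocols, left ventricles were snap frozen, and Trizol-extracted RNA (6 ug) was made into biotinylated cRNA. Medians of the probe sets over the TAC arrays, and over the SHAM arrays, were all within 1e-06 of 0, so levels, and a filter on dim genes, are lost. Array medians ran from -0.036 to 0.027, and no pair of arrays was identical. Precision is limited by 3 arrays per group. The labels call the mice of a group biological replicates.

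Groups came from the titles. The platform annotation named 20393 probe sets with 1 symbol (691 had several, 1606 none). Without 13 controls, 20380 were averaged into 12393 genes, and 20351 matched RefSeq by Entrez identifier. limma 3.58.1 in R 4.3.3 fitted the 6 TAC time means over 18 arrays (empirical Bayes, no trend) and, for the TAC minus SHAM difference, 12 group means over 36 arrays. The code was tested on simulated data. Figures used matplotlib 3.10.9.

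Members and lists were chosen with earlier results of these data known. Named genes were the 10 smallest p per direction, Myh7, Nppa, Postn, the clock and atrial lists, and part of the fetal programme list. From each other list the rule took those that passed or else the 2 smallest p. Not all of these are named here, and some lists, such as angiogenesis and hypoxia, are given by counts or medians only. Fos, Egr1, Col3a1, Junb and Nr4a1 were named outside the rule. The 10 smallest p of the TAC minus SHAM difference were added, without clone-like symbols. Fetal programme members left unnamed did not reach an unadjusted p under 0.05. Alternatives varied the arrays that give the spread, the normalization, array weights, robust fitting, the probe set rule, an SD filter, the replicate block, left-out arrays, a fold minimum of 1.5 and marker covariates. Promoters came from RefSeq (GRCm38.p6).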

Additional observations from a re-analysis of the deposited data

Results flagged for a closer look

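Ier3 met the test of a difference between surgeries. Its ZT23 minus ZT19 change was 0.70 in TAC hearts and -0.84 in SHAM hearts, and the difference was 1.54 ± 0.26 (SE, n = 3 mice per group; limma adjusted p = 0.0206 over 36 arrays). All 3 TAC arrays at ZT23 were above all 3 TAC arrays at ZT19, and all 3 SHAM arrays at ZT23 were below all 3 SHAM arrays at ZT19. With 1 of the 12 arrays left out at a time the difference stayed between 1.40 and 1.73, but it no longer passed in 7 cases (limma adjusted p from 0.0572 to 0.168). Groups of 3 were not tested for single outlying arrays.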

How the results depend on the processing

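The 7 genes that changed between TAC ZT23 and TAC ZT19 became 0 with the spread of the 6 arrays alone and 112 with that of all 36 arrays. They became 2 with quantile normalization and 235 with array weights. With each probe set tested by itself, 18 probe sets passed, a count of probe sets and not of genes. The 7 genes became 1 with the atrial marker mean and 0 with the matrix list mean as a covariate. They became 3 without the arrays with a marker list mean above 1 (an alternative chosen after seeing the data). Leaving out 1 of the 6 arrays gave 0 to 7, and leaving out a replicate number from all times 0 to 11. With 0 genes, an unadjusted p under 0.05 was still reached by limma for 1061 genes over the 6 arrays, 374 with the matrix covariate, 916 without ZT23 replicate 2 and 779 without ZT19 replicate 2. The replicate block gave 5, as Bhlhe40 (adjusted p = 0.0761) and Mmp14 (0.0632) no longer passed. Same-numbered ZT23 and ZT19 arrays had correlations of 0.04, -0.07 and 0.03 of their deviations. No pairing by replicate number was evident over all genes, and a pairing limited to some genes was not tested. The remaining alternatives gave 5 to 10. The 1 gene that differed between TAC and SHAM became 89 with array weights, 0 with the matrix covariate and 4 without the arrays with a marker list mean above 1. Leaving out single arrays gave 0 to 4 and a replicate number 0 to 1. The single gene was not Ier3 without TAC ZT23 replicate 3, without SHAM ZT19 replicate 3 or without replicate 1 at all times. The remaining alternatives, the replicate block included, gave 1. With the atrial marker mean as a covariate the change turned to 0.65 for Dkk3, 0.058 for Herpud1, 0.025 for Per3, -0.071 for Arntl, 0.18 for Nr1d2 and 0.70 for Usp2, and with the matrix covariate to -0.053 for Nppb; the cause was not tested. The values hold no signal over background, so dim genes could not be set apart.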
